A study of Mus musculus with 20 samples.

Results

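The genes described here are 45 interferon-stimulated genes of the mouse, a list of names that leaves out the oligoadenylate synthetase (OAS) family and the genes of the major histocompatibility complex. All 45 had a row among the 29956 gene rows of the deposited tables, and 43 of them reached 10 or more counts in at least 4 libraries and were tested among 13542 genes. The other 2, Irf7 and Gbp6, were too low to test. RNA came from melb-a cells, an immortal line of mouse melanoblasts, the embryonic precursors of pigment cells. Poly(A) RNA of 20 libraries was sequenced in 5 groups of 4, which the submitters call independent replicates. Parental cells received no virus. The shLuciferase and shScramble cells carried a lentiviral short hairpin RNA (shRNA) with no intended target in the mouse, and the shHIRA I and shHIRA II cells carried either of the hairpins directed at Hira, which encodes a histone chaperone that deposits histone H3.3. Infection lasted 16 h in the presence of polybrene (8 µg/ml), and puromycin at 1 µg/ml was then used to select infected cells, per the labels' protocols. All groups grew in medium with SCF (10 ng/ml), Fgf2 (40 pM) and 10% serum.

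Interferons are secreted proteins that cells release when they detect viral or misplaced nucleic acid. Type I interferons bind the receptor made of Ifnar1 and Ifnar2, whose kinases Jak1 and Tyk2 signal onward to a complex that holds Stat2 and Irf9 and binds the interferon-stimulated response element (ISRE) in the promoters of many target genes. Interferon gamma uses another receptor and acts through the gamma-activated site (GAS). The targets include sensors of viral RNA and DNA, proteins that block viral translation or replication, and the ubiquitin-like modifier Isg15. Because Stat2, Irf9 and the sensors are themselves targets, the response can amplify itself. Melanocytes and their precursors are able to respond to interferons as most cell types are.

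The promoter stretches below show where the letters of the ISRE occur, or do not, in some of these genes. They come from RefSeq (build GRCm38.p6), run 5′ to 3′ on the gene's strand over the 200 bases before the start of transcription, and carry matches to the ISRE letters (GAAA, a gap of any 2 bases, and GAAA again, on either strand) in capitals. Ifit3 and Ifit2 lie side by side and are shown because their levels differed in these cells as described below; Isg15 and Gbp7 stand for 2 further groups of members.
Ifit3, chr19:34583329-34583528, plus strand: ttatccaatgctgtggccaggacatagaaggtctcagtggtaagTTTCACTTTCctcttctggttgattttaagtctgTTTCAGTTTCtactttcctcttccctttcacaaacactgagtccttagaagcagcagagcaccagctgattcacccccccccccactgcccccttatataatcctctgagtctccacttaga
Ifit2, chr19:34550494-34550693, plus strand: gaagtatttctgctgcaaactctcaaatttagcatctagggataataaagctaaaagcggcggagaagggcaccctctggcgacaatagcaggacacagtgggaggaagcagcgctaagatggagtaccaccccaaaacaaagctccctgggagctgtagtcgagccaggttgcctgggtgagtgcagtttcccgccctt
Isg15, chr4:156200819-156201018, minus strand: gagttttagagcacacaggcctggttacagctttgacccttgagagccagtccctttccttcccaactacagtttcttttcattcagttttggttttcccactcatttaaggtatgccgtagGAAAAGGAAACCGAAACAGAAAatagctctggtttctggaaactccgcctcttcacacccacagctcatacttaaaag
Gbp7, chr3:142530136-142530335, plus strand: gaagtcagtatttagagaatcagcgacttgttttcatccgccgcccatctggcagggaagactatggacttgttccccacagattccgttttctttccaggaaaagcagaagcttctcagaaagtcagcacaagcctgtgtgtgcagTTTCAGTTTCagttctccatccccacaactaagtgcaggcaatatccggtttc
Ifit3 held 2 matches, at 156 and 122 bases before its start. The Ifit2 stretch held none, and neither did the window at another RefSeq start of Ifit2, which is not printed. The 3 matches of Isg15 overlapped one another, and Gbp7 held 1. Promoter windows of 300 bases (250 before and 50 after the start) could be matched for 33 of the 45 genes. An ISRE match was present in 16 of these 33 (48.5%), against 1079 of all 27025 genes with a window (3.99%). A match to the GAS letters TTCNNNGAA, which read the same on both strands, was present in 7 of the 33 (21.2%), against 2582 of the 27025 (9.55%). No ISRE match was found in the windows of Ifit2, Irf7, Irf9, Adar, Herc6, Trim25, Uba7, Cmpk2 or Samd9l. The same held for Parp12, Dtx3l, Xaf1, Ifi35, Ifi44, Sp100, Rnf213 and Lgals3bp. Calls in control hairpin cells against parental cells, given below, were found with and without a match. Of the 16 genes with a match, all but Bst2 and Trim30a were called higher. Among those without, Irf9, Adar, Herc6, Trim25, Cmpk2, Samd9l, Parp12, Dtx3l, Xaf1, Ifi44 and Sp100 were called higher. Ifit2, Uba7, Ifi35, Rnf213 and Lgals3bp were not, and Irf7 was not tested. A match is a description of letters and not evidence of binding, and its bearing on the levels was not tested.

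Library totals lay between 14.95 M and 20.7 M estimated counts (M, 1e6). The level of Hira itself was 46.7, 52.7, 44.9 and 62.8 TPM (a level per transcript length, scaled to the library) in parental replicates 1 to 4, 57.8, 46.6, 55.6 and 40.1 in shLuciferase and 51.7, 36.1, 42.7 and 47.8 in shScramble. It was 32.9, 19.6, 22.1 and 22.9 TPM in shHIRA I, below every other library, and 41.5, 35.1, 50.4 and 49.2 in shHIRA II, overlapping the controls. Relative to the mean of both control hairpins, Hira stood at 48.3% in shHIRA I (95% interval 39.3% to 59.4%, adjusted p = 5.09e-05) and at 87.8% in shHIRA II (72.1% to 107%, adjusted p = 0.309). Against parental cells it stood at 75.9% in shHIRA II (60.5% to 95.2%, adjusted p = 0.0626), and with the mitochondrial share of counts, given next, as a covariate its log2 fold change against the controls was -0.46 (adjusted p = 0.0398). Hira was called lower in shHIRA I, while in the libraries labelled shHIRA II the call against the controls depended on that covariate, and every direction given below for shHIRA II belongs to libraries so labelled. Melanoblast markers summed to between 2481 and 4287 TPM in the parental and control libraries, 975 to 2987 in shHIRA I and 661 to 1065 in shHIRA II; Ednrb was near 0 throughout, and Sox10 lay between 0.00016 and 11.2. Leukocyte markers, which immune cells in a culture would bring, summed to 7.27 to 18.4 TPM over 11 genes, most of it Lyz2 and Cd68, and Ptprc stayed at or below 0.128 TPM in every library. Fibroblast markers summed to 55.8 to 122 TPM in shHIRA I against 7.73 to 48.1 elsewhere.

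The share of counts from 13 mitochondrial rows, a coarse sign of library composition, was 5.50% to 9.96% in the parental and control libraries. It was 5.74%, 9.58%, 1.23% and 6.27% in shHIRA I replicates 1 to 4 and 4.70%, 2.88%, 4.45% and 4.71% in shHIRA II. The shHIRA I replicate at 1.23% stands apart. Counts of called members that move with it are given with and without it, as are the called members named below whose fold change it moves by over 1.5 times. The further genes of the interferon pathway, described last, are given only with it. Its part in those results was not tested. Since these are bulk samples, fewer cells that express a gene and less RNA per expressing cell cannot be told apart.

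Transduction with a control hairpin was accompanied by higher levels of most of these genes. In the mean of the shLuciferase and shScramble groups against parental cells, 35 of the 43 tested members were higher and 0 lower (edgeR quasi-likelihood test, Benjamini-Hochberg adjusted p under 0.05 over all genes), against 2.06% of all genes called higher and 1.57% called lower (3.63% in all). The median log2 fold change of the 43 was 1.89, where the median of all genes tested was 0.01, and all 43 fold changes were positive. In 38 members every control library lay above every parental one, a pattern seen in 4.18% of all genes; 0 lay wholly below, where 1.64% of all genes did. The 37 members that already had 10 or more counts in each parental library, and so did not depend on the transduced groups to be tested, included 31 called higher, with a median of 1.69; 1.53% of the 11463 genes that pass the same condition were called higher. Parental cells received neither virus nor, per the protocols, puromycin, so the effects of virus, hairpin and selection cannot be told apart in this comparison.

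**Figure D1:**
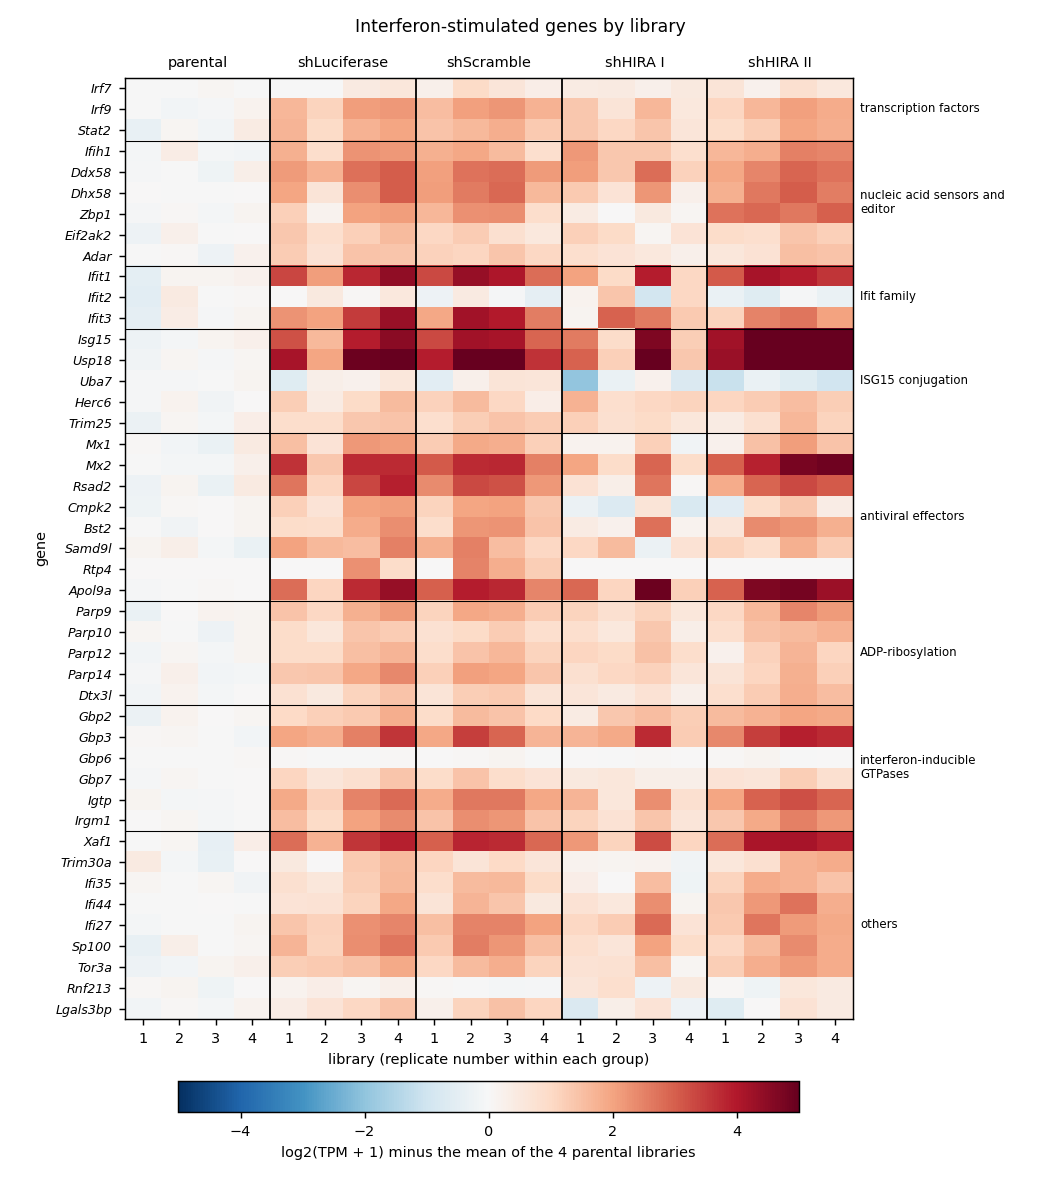
Level of each of the 45 genes (rows, ordered by role) in each of the 20 libraries (columns, by group and replicate), as log2(TPM + 1) minus the mean of the 4 parental libraries. The colours saturate at 5 in either direction, which Isg15 and Usp18 pass in several libraries; most rows are red in all transduced groups, palest in shHIRA I, where replicate 3 is the darkest column, while Ifit2, Uba7, Rnf213 and Gbp6 stay pale.

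Among the transcription factors of the response, Irf9 (chr14:55603571-55610030, plus strand), a DNA-binding part of the complex with Stat2, stood at 9.02, 8.31, 8.72 and 10.5 TPM in the parental libraries, 30.6, 20.6, 41.9 and 44.9 in shLuciferase and 28.6, 40.4, 45.6 and 32.4 in shScramble, in order of replicate number here and throughout; gene spans are those of GENCODE M21 on GRCm38. All 8 control libraries exceeded all 4 parental ones (log2 1.89 ± 0.30 SE, adjusted p = 0.00209). Stat2 (chr10:128270559-128292849, plus strand) was at 3.48, 5.29, 4.35 and 6.66 TPM in parental cells, 17.9, 10.4, 18.3 and 21.8 in shLuciferase and 14.6, 16.97, 19.6 and 13.5 in shScramble, again without overlap (log2 1.69 ± 0.26 SE, adjusted p = 0.00155). Irf7, the factor that amplifies type I interferon production, reached at most 14.99 estimated counts in any library and was listed at 0 in 3 of 4 parental libraries.

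All 6 nucleic acid sensors and editors rose with transduction, by a median log2 of 2.57. Ifih1, which senses long double-stranded RNA (chr2:62595798-62646255, minus strand), went from 0.556, 1.14, 0.546 and 0.509 TPM in parental libraries to 4.73, 2.11, 7.01 and 6.53 in shLuciferase and 4.78, 5.33, 4.06 and 2.01 in shScramble (log2 2.66 ± 0.40 SE, adjusted p = 0.00146). Ddx58, the RIG-I sensor of RNA with 5′ triphosphates (chr4:40203773-40239828, minus strand), stood at 11.6, 12.004, 10.2 and 15.1 TPM in parental cells, 55.6, 42.6, 87.5 and 105 in shLuciferase and 52.9, 85.5, 89.7 and 56.04 in shScramble (log2 2.49 ± 0.37 SE, adjusted p = 0.00146). Neither gene overlapped between parental and control libraries. Dhx58, their relative without a signalling domain, rose by 2.88 on the log2 scale (adjusted p = 0.00562), and Zbp1, a sensor of Z-form nucleic acid described further below, by 3.44 (adjusted p = 0.00338). The kinase Eif2ak2 (PKR), which halts translation on double-stranded RNA, rose by 1.06 (adjusted p = 0.00239), and Adar, which edits adenosines in such RNA, by 1.19 (adjusted p = 0.00151).

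The Ifit genes, whose products bind viral RNA and hinder its translation, divided within 1 cluster of chromosome 19. Ifit1 was at 2.05, 3.67, 3.64 and 3.97 TPM in parental cells, 42.1, 16.98, 57.5 and 91.6 in shLuciferase and 40.5, 86.7, 69.7 and 28.7 in shScramble (log2 3.96 ± 0.70 SE, adjusted p = 0.00338). Ifit3 (chr19:34583531-34588731, plus strand) was at 8.34, 15.3, 11.3 and 13.1 TPM in parental cells, 58.96, 50.3, 143 and 256 in shLuciferase and 47.6, 236, 200.3 and 74.1 in shScramble (log2 3.42 ± 0.65 SE, adjusted p = 0.00562); 61.8% of its 31-base words also occur in transcripts of Ifit3b, so the split of reads between those copies is uncertain. Ifit2 (chr19:34550694-34576419, plus strand), which ends 7111 bp before Ifit3 begins, was at 17.4, 34.9, 25.2 and 26.7 TPM in parental cells, 25.9, 35.8, 26.7 and 36.7 in shLuciferase and 20.99, 34.5, 24.4 and 18.5 in shScramble. Its groups overlapped and did not pass the test (log2 0.03 ± 0.27 SE, adjusted p = 0.972). In parental cells Ifit2 had the highest level of the 3 genes in every library, and in the transduced controls Ifit3 exceeded it in every library.

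Isg15 (chr4:156199424-156200818, minus strand), the ubiquitin-like protein attached to newly made proteins, was at 5.29, 5.97, 7.24 and 7.91 TPM in parental cells, 67.9, 22.3, 114 and 172 in shLuciferase and 72.97, 138, 130.3 and 55.3 in shScramble. The control libraries lay above the parental ones but spread widely among themselves (log2 3.80 ± 0.78 SE, adjusted p = 0.0102). Usp18, the protease that removes Isg15 and dampens receptor signalling, had 0.59, 0.938, 0.738 and 0.938 TPM in parental cells, 29.9, 6.06, 53.1 and 76.5 in shLuciferase and 26.5, 66.5, 67.9 and 20.7 in shScramble (log2 5.69 ± 1.07 SE, adjusted p = 0.00553). The ligases Herc6 and Trim25 rose by 1.35 and 1.23 on the log2 scale (adjusted p = 0.0106 and 0.00378). Uba7, the activating enzyme that begins Isg15 conjugation (chr9:107975505-107984060, plus strand), showed no such difference: its levels were 21.5, 21.3, 22.4 and 24.95 TPM in parental cells, 14.2, 27.5, 26.5 and 33.9 in shLuciferase and 15.5, 27.01, 36.1 and 34.5 in shScramble (log2 0.18 ± 0.36 SE, adjusted p = 0.859).

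Of the 8 antiviral effectors, 6 were higher in control hairpin cells. Mx2 (chr16:97535308-97560900, plus strand), of a family of dynamin-like GTPases, was at 2.96, 2.76, 2.73 and 3.77 TPM in parental cells, 48.02, 9.40, 52.8 and 52.3 in shLuciferase and 32.96, 53.3, 54.4 and 22.04 in shScramble (log2 3.67 ± 0.59 SE, adjusted p = 0.00221). GENCODE M21 lists Mx2 as a polymorphic pseudogene. Its neighbour Mx1 had 10.6, 9.18, 7.90 and 14.1 TPM in parental cells, 30.9, 17.1, 49.9 and 47.2 in shLuciferase and 25.8, 41.1, 38.3 and 24.5 in shScramble (log2 1.65 ± 0.39 SE, adjusted p = 0.0236). Rsad2, also called viperin, which makes a chain-terminating nucleotide, had 9.53, 12.5, 8.75 and 16.1 TPM in parental cells, 78.5, 25.1, 126 and 182 in shLuciferase and 63.3, 123, 111 and 54.05 in shScramble (log2 2.97 ± 0.62 SE, adjusted p = 0.0111). None of these 3 overlapped between parental and control libraries. Cmpk2, a nucleotide kinase 12751 bp from Rsad2 on the opposite strand, rose by 1.64 (adjusted p = 0.0341), Samd9l, a brake on translation in infected cells, by 2.01 (adjusted p = 0.00222), and Apol9a by 5.01 (adjusted p = 0.00881). Bst2 (tetherin, chr8:71534255-71537456, minus strand), which holds budding virus at the cell surface and had the highest mean level of all members, was at 204, 184, 211 and 227 TPM in parental cells, 393, 375, 747 and 1041 in shLuciferase and 379.6, 947, 979.8 and 557 in shScramble. No control library fell into the parental range, yet the call was not reached (log2 1.64 ± 0.55 SE, adjusted p = 0.12), with control values from 375 to 1041 TPM.

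Rtp4 (chr16:23520291-23614222, plus strand) was detected only in some libraries of the control groups. Its estimated counts were 0 in all parental, shHIRA I and shHIRA II libraries. They were 0, 0, 94.2 and 20.2 in shLuciferase and 0, 114, 65.1 and 28.7 in shScramble, so that detection varied within both control groups. Against a floor of 3 counts over a group, the level in the control groups was at least 55.6-fold higher than in parental cells, 50.4-fold than in shHIRA I and 48.4-fold than in shHIRA II. Adjusted p-values were 0.132, 0.0505 and 0.0345 in that order, and the last, the sole call, was lost in 11 of 32 alternative analyses, among them DESeq2 (0.106).

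All 5 genes of the ADP-ribosylation group rose with transduction, by a median log2 of 1.27. Parp14 (chr16:35832874-35871544, minus strand), a mono-ADP-ribosyltransferase, was at 1.10, 1.62, 0.977 and 1.03 TPM in parental cells, 4.59, 4.73, 7.31 and 10.5 in shLuciferase and 3.93, 7.91, 7.62 and 4.71 in shScramble (log2 2.37 ± 0.32 SE, adjusted p = 0.000842). The control libraries all exceeded the parental ones. Parp9, Dtx3l, Parp12 and Parp10 rose by 1.66, 1.23, 1.27 and 0.99 (adjusted p = 0.003, 0.0112, 0.0105 and 0.0329). Parp9 and its ubiquitin ligase partner Dtx3l are neighbours whose annotated spans overlap on chromosome 16, and how reads from the overlap were assigned is not given in the sources used here.

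All 5 tested interferon-inducible GTPases, which attack the membranes around intracellular pathogens, rose by a median log2 of 2.84. Gbp7 (chr3:142530342-142550149, plus strand) was at 0.0757, 0.21, 0.103 and 0.129 TPM in parental cells, 1.36, 0.707, 0.948 and 1.99 in shLuciferase and 1.13, 2.06, 1.08 and 0.824 in shScramble (log2 3.24 ± 0.39 SE, adjusted p = 0.000574), the smallest adjusted p of any member in this comparison. Irgm1 (chr11:48861968-48871683, minus strand), which regulates the other immunity-related GTPases, was at 13.03, 13.6, 11.9 and 12.4 TPM in parental cells, 38.7, 25.9, 53.7 and 69.3 in shLuciferase and 36.2, 67.9, 62.1 and 35.6 in shScramble (log2 1.86 ± 0.31 SE, adjusted p = 0.00239). Both were free of overlap. Gbp3, Igtp and Gbp2 rose by 3.51, 2.84 and 1.61 (adjusted p = 0.00546, 0.0029 and 0.00356), while Gbp6 had at most 8.10 estimated counts in any library. Of the 31-base words of Gbp6, 74.2% also occur in transcripts of other genes (67.8% in those of Gm43302). The split of reads between them is therefore uncertain, and its low counts may understate its level.

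Of the 9 remaining members 5 were called higher. Xaf1 (chr11:72301629-72313733, plus strand), which promotes apoptosis, was at 6.04, 6.46, 4.32 and 7.88 TPM in parental cells, 47.8, 22.7, 81.9 and 103 in shLuciferase and 54.5, 97.8, 92.2 and 49.99 in shScramble (log2 3.42 ± 0.55 SE, adjusted p = 0.00222). Ifi27 (chr12:103434211-103440239, plus strand), a small membrane protein, was at 82.99, 87.3, 88.8 and 98.6 TPM in parental cells, 236, 202, 442 and 491 in shLuciferase and 253, 499, 498 and 361 in shScramble (log2 1.98 ± 0.45 SE, adjusted p = 0.0193). Parental and control libraries did not overlap for either gene. Ifi44 summed to 411 estimated counts over the 8 control libraries and 1 over the 4 parental ones, a ratio of 213 after scaling to library totals with a 95% counting interval of 38.0 to 8431. Sp100, of nuclear bodies, and Tor3a rose by 2.38 and 1.52 (adjusted p = 0.0059 and 0.00792). The large ubiquitin ligase Rnf213 did not pass the test and lay between 6.94 and 10.5 TPM in all parental and control libraries (log2 0.03 ± 0.12 SE, adjusted p = 0.944). Ifi35, Trim30a and Lgals3bp had log2 fold changes of 1.17, 1.70 and 0.91 that did not pass (adjusted p = 0.0856, 0.0934 and 0.122).

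The call was kept in all 32 alternative analyses by 30 of the 35 members. Cmpk2, Parp10, Ifi27 and Mx1 lost it when a single parental library was left out (adjusted p from 0.0601 to 0.119; Mx1 for replicates 1 to 3, the others for each of the 4), and Cmpk2 and Parp10 also without shLuciferase replicate 3 or 4 or shScramble replicate 2 or 3 (0.0561 to 0.0652). With shLuciferase alone as control, Cmpk2, Ifi27 and Parp10 lost it (0.0627 to 0.0850). With shScramble alone, Cmpk2, Mx1 and Parp10 did (0.0722 to 0.0926). Ifi44 lost it in limma on log2(TPM + 1) (0.121).

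No member differed by the test between the 2 control hairpins. In shScramble against shLuciferase, 0 of the 43 members were called by edgeR, and 0 had an unadjusted p under 0.05, where 0% of all genes were called and 171 of 13542 had an unadjusted p under 0.05. DESeq2 and limma gave 0 members at an unadjusted p under 0.05 as well, with 4 and 0 genes called in all. The median log2 fold change of the members was 0.10, and in 0 members shScramble lay wholly above shLuciferase and in 1 wholly below (0.369% and 2.14% of all genes). Within a group the highest library of a member exceeded the lowest by a median of 1.48-fold in parental cells, 2.66-fold in shLuciferase, 1.96-fold in shScramble, 3.001-fold in shHIRA I and 2.53-fold in shHIRA II.

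The spread was shared by the members. In each library the median over all 45 members of log2(TPM + 1) above the parental mean was taken as a summary, without a test. It was 1.34, 0.90, 1.86 and 2.10 in shLuciferase replicates 1 to 4, 1.15, 1.93, 1.82 and 1.23 in shScramble, 0.84, 0.78, 1.39 and 0.58 in shHIRA I and 1.06, 1.62, 2.07 and 1.80 in shHIRA II, where parental libraries ran from -0.06 to 0.11. Every transduced library thus stood above every parental one. Of 43 tested members, 36 had their highest shLuciferase value in replicate 4 and 33 their lowest in replicate 2. In shHIRA I, 31 were highest in replicate 3, the library with a mitochondrial share of 1.23%, and 24 were lowest in replicate 4. In shHIRA II, 32 were highest in replicate 3 and 37 lowest in replicate 1. The same counts were not made over all genes, so whether this pattern is particular to the members was not tested.

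**Figure D2:**
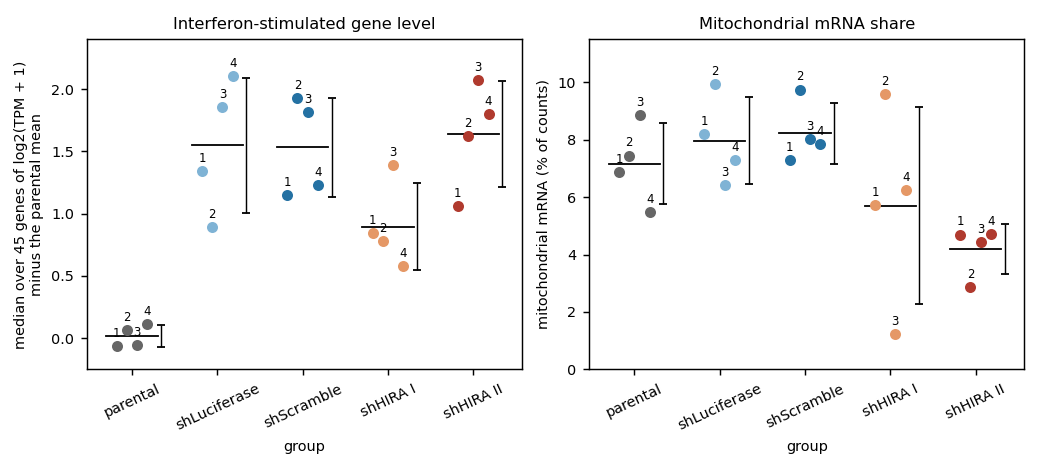
Left panel, the median over the 45 genes of log2(TPM + 1) minus the parental mean for each library; right panel, the mitochondrial share of counts in percent. Numbers give the replicate, lines the group mean and bars the SD of 4 libraries. The shHIRA I mean of 0.90 ± 0.35 lies below the control means of 1.55 ± 0.54 and 1.53 ± 0.40, with replicate 3 the highest of its group at 1.39 and at the lowest mitochondrial share.

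In shHIRA I against the mean of both control hairpins, 12 of the 43 tested members were lower and 0 higher. Of all genes tested, 8.85% were called lower and 10.8% higher (19.7% either way). The median log2 fold change of the members was -0.74, against 0.05 for all genes, with 38 negative and 5 positive. Cmpk2, Gbp7 and Parp14 were the 3 members with every shHIRA I library below every control library, a pattern of 2.61% of all genes. Wholly above the controls lay 0 members, where 5.83% of all genes did. An unadjusted p under 0.05 was reached by 25 of the 43 members and by 4363 of all 13542 genes. By role, the 12 were 2 of 6 sensors and editors (Zbp1 and Adar), 4 of 8 antiviral effectors (Mx1, Mx2, Cmpk2 and Samd9l), 2 of 5 ADP-ribosylation genes (Parp9 and Parp14), 2 of 5 GTPases (Gbp7 and Irgm1) and 2 of 9 others (Trim30a and Lgals3bp). None of the 2 tested transcription factors, 3 Ifit genes and 5 Isg15 conjugation genes passed.

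Zbp1 (chr2:173206612-173218923, minus strand), which can trigger necroptosis once it binds nucleic acid, was at 1.93, 0.423, 4.11 and 4.42 TPM in shLuciferase, 2.98, 5.19, 5.28 and 1.36 in shScramble and 0.703, 0.296, 0.788 and 0.341 in shHIRA I. The shHIRA I values stood near those of the parental libraries, 0.203, 0.329, 0.173 and 0.383 TPM, and only shLuciferase replicate 2 fell among them (log2 -2.63 ± 0.57 SE, adjusted p = 0.00273). Against parental cells the shHIRA I fold change was log2 0.81 ± 0.66 SE, adjusted p = 0.457.

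Cmpk2 (chr12:26469204-26479837, plus strand) was at 9.40, 11.6, 11.4 and 12.1 TPM in parental cells, 26.5, 18.2, 47.3 and 50.8 in shLuciferase, 24.8, 45.8, 47.1 and 29.97 in shScramble and 8.93, 6.49, 17.8 and 6.12 in shHIRA I. Every shHIRA I library lay below every control library (log2 -1.89 ± 0.42 SE, adjusted p = 0.00369), and 3 of the 4 lay below the parental ones too (log2 -0.26 ± 0.45 SE, adjusted p = 0.757 against parental). Its neighbour Rsad2 had 19.3, 14.04, 78.1 and 12.01 TPM in shHIRA I, with replicate 3 among the controls, and did not pass (log2 -1.56 ± 0.57 SE, adjusted p = 0.0606).

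Adar (chr3:89715022-89753446, plus strand) was at 10.4, 11.2, 8.88 and 12.5 TPM in parental cells, 27.2, 18.4, 30.4 and 29.6 in shLuciferase, 24.8, 23.7, 29.4 and 22.8 in shScramble and 20.01, 17.7, 15.8 and 12.7 in shHIRA I. The shHIRA I range touched only the lowest control library, shLuciferase replicate 2 (log2 -0.74 ± 0.17 SE, adjusted p = 0.00542). Samd9l (chr6:3372257-3399572, minus strand) had 5.25, 6.01, 4.30 and 3.50 TPM in parental cells, 21.8, 16.6, 15.7 and 31.4 in shLuciferase, 18.7, 31.6, 15.8 and 10.5 in shScramble and 10.6, 15.8, 3.70 and 8.33 in shHIRA I (log2 -1.25 ± 0.31 SE, adjusted p = 0.00784), and unlike most members it was lowest in shHIRA I replicate 3. Parp14 stood at 2.75, 3.48, 3.76 and 2.26 TPM in shHIRA I, below all control libraries given above (log2 -1.14 ± 0.30 SE, adjusted p = 0.011), and still above parental cells (log2 1.23 ± 0.34 SE, adjusted p = 0.0173). Gbp7 likewise lay below all controls at 0.598, 0.67, 0.371 and 0.372 TPM (log2 -1.47 ± 0.34 SE, adjusted p = 0.005) and above parental cells (log2 1.77 ± 0.40 SE, adjusted p = 0.00521).

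**Figure D3:**
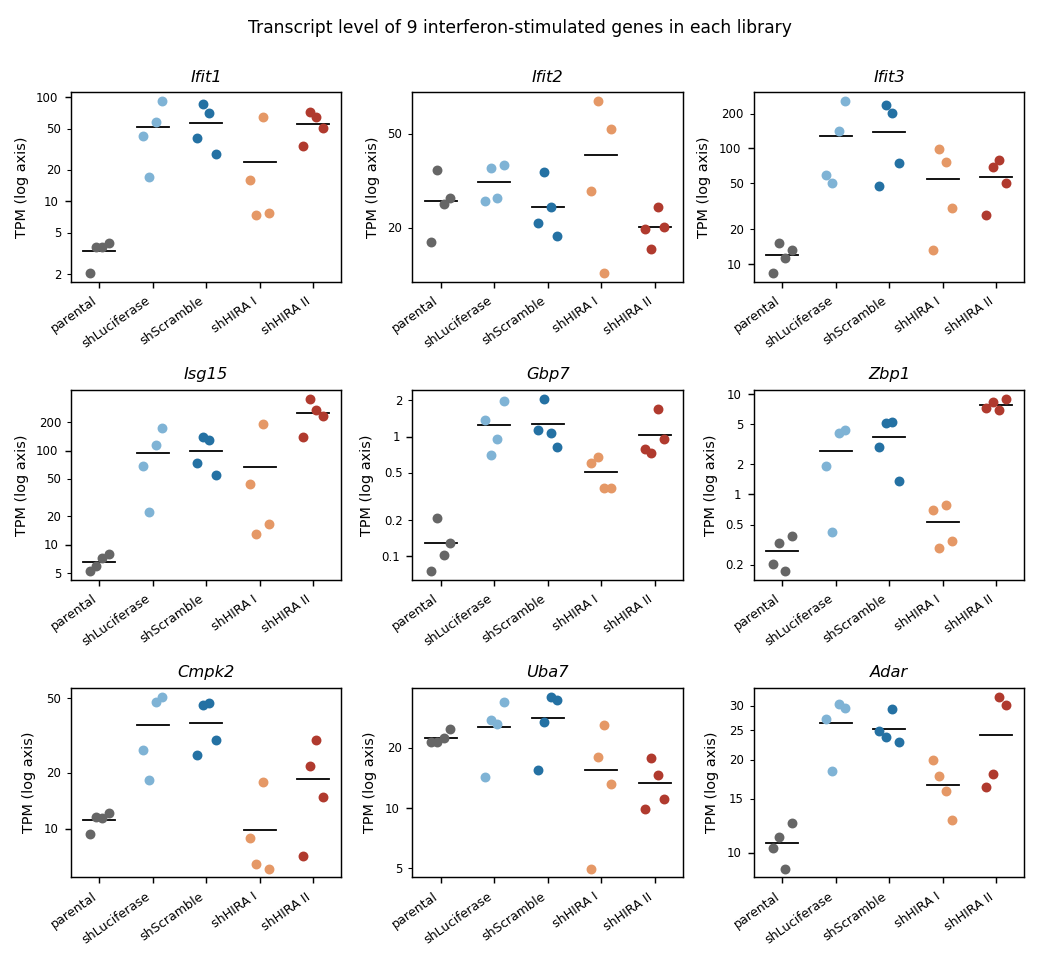
TPM on log axes for 9 genes in each library of the 5 groups, one point per library and a line at the group mean of 4. Zbp1 is near its parental level in shHIRA I and highest in shHIRA II, Cmpk2, Gbp7 and Adar are lower in shHIRA I than in the controls, and Ifit2 and Uba7 overlap between parental and control libraries.

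Zbp1, Cmpk2, Gbp7, Adar, Samd9l and Parp14 kept the call in all 32 alternative analyses. The other 6 did not. Mx1 was at 11.8, 11.8, 24.4 and 8.86 TPM in shHIRA I (log2 -1.29 ± 0.38 SE, adjusted p = 0.0222) and Mx2 at 14.7, 6.55, 29.3 and 6.60 (log2 -1.49 ± 0.51 SE, adjusted p = 0.0458). Trim30a (chr7:104409025-104465193, minus strand), a regulator of inflammasome signalling, had 1.04, 0.37, 0.161 and 0.504 TPM in parental cells, 1.08, 0.496, 2.64 and 3.46 in shLuciferase, 2.14, 1.34, 1.94 and 1.24 in shScramble and 0.678, 0.626, 0.66 and 0.307 in shHIRA I (log2 -1.73 ± 0.54 SE, adjusted p = 0.0294). The remaining 3 were Irgm1 at 28.4, 21.5, 35.03 and 20.1 TPM (log2 -0.95 ± 0.29 SE, adjusted p = 0.0261), Parp9 (log2 -0.81 ± 0.27 SE, adjusted p = 0.0406) and Lgals3bp, described below. All 6 lost the call without shHIRA I replicate 1, 2 or 4 (adjusted p 0.0554 to 0.139). Without shLuciferase replicate 4, 5 of them lost it (all but Mx1, 0.0538 to 0.0794), and without shLuciferase replicate 3, 4 did (0.0527 to 0.0759). Lgals3bp and Mx2 were lost as well when any 1 parental library was left out, and shScramble replicate 2 or 3 ended those of Lgals3bp, Mx2 and Parp9. Mx2 was further lost without shLuciferase replicate 1 or shHIRA II replicate 2, 3 or 4 (0.0516 to 0.0637), and Lgals3bp without shScramble replicate 4 or shHIRA II replicate 4 (0.0504 to 0.0602).

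The number lower depended on 1 library above all. Without shHIRA I replicate 3, 32 members were lower and 1 higher, with a median log2 fold change of -1.39, where the calls over all genes rose from 2668 to 3088. Among the 12 reported calls, Cmpk2 then stood at -2.56 on the log2 scale (adjusted p = 0.000287), Mx2 at -2.35 (adjusted p = 0.00275) and Mx1 at -1.89 (adjusted p = 0.00142). When other libraries were left out, the number fell to 6 without replicate 2 or 4 of that group. Omitting shHIRA I replicate 1 or shLuciferase replicate 4 gave 7, and omitting shLuciferase replicate 2 gave 19. A covariate for mitochondrial share gave 31. Members of the Isg15 and Ifit groups show the place of replicate 3: Isg15 had 44.6, 13.2, 193 and 16.7 TPM, Usp18 13.01, 3.11, 85.9 and 3.58 and Ifit1 15.99, 7.33, 64.4 and 7.69 in shHIRA I. In each of these the replicate with the low mitochondrial share reached or passed most control libraries while the other 3 lay between the parental and most of the control values, and none of the 3 genes passed the test (adjusted p = 0.683, 0.646 and 0.2). Bst2 had 276, 242, 1409.8 and 229.8 TPM, with the highest level of any library in that replicate (log2 -0.25 ± 0.52 SE, adjusted p = 0.783).

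Set against parental cells, shHIRA I still held higher levels of these genes: 24 of 43 members were higher and 0 lower (9.93% of all genes higher, 6.82% lower), with a median log2 fold change of 1.10. In 28 members all shHIRA I libraries lay above all parental ones and in 0 below (13.5% and 3.83% of all genes). This comparison shares its parental libraries with that of transduction and is not independent of it. Without shHIRA I replicate 3, 15 members were higher and 1 was lower, Uba7 (log2 -1.20, adjusted p = 0.0368). Without parental replicate 3, 15 were higher and 0 lower. Ifih1 was higher by log2 2.26 ± 0.42 SE, adjusted p = 0.0014 and Herc6 by log2 1.38 ± 0.31 SE, adjusted p = 0.00486. Isg15 was higher by log2 3.36 ± 0.81 SE, adjusted p = 0.00752, and without shHIRA I replicate 3 its log2 fold change was 1.61 and did not pass (adjusted p = 0.0552). Mx1 (log2 0.36 ± 0.42 SE, adjusted p = 0.622), Adar (log2 0.45 ± 0.20 SE, adjusted p = 0.125) and Lgals3bp (log2 -0.01 ± 0.34 SE, adjusted p = 0.988) did not pass the test against parental cells.

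In the libraries labelled shHIRA II, 1 member was higher and 3 were lower than the control hairpins, while 15.8% of all genes were called higher and 16.7% lower. The median log2 fold change was 0.05, against 0.02 over all genes. An unadjusted p under 0.05 was reached by 9 of the 43 members and by 5776 of all 13542 genes. In 1 member every shHIRA II library lay above every control library and in 0 below (13.0% and 9.13% of all genes). Zbp1 was the member called higher: it stood at 7.27, 8.32, 6.87 and 8.96 TPM in shHIRA II, above every other library of the study (log2 1.22 ± 0.45 SE, adjusted p = 0.0445). Uba7 was lower at 9.94, 17.8, 14.6 and 11.2 TPM, in a range that met the lowest library of either control group (log2 -1.06 ± 0.38 SE, adjusted p = 0.0377). Lgals3bp (chr11:118392751-118402092, minus strand), a secreted glycoprotein, was at 96.7, 113, 101 and 119.9 TPM in parental cells, 137, 173, 219.7 and 287 in shLuciferase and 129, 229.9, 297 and 227 in shScramble. It stood at 64.3, 132, 174 and 90.1 TPM in shHIRA I (log2 -0.92 ± 0.31 SE, adjusted p = 0.0424) and 69.6, 108, 176 and 148 in shHIRA II (log2 -0.86 ± 0.31 SE, adjusted p = 0.039), in both overlapping the lower control libraries and the parental level. The third lower member was Rtp4, given above.

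None of these 4 calls was kept in all 32 alternatives. All 4 were lost without shHIRA II replicate 1 (adjusted p 0.0722 to 0.160) or replicate 4 (0.0648 to 0.113), and with shLuciferase alone as control (0.0533 to 0.119). The Zbp1 call was lost in 16 of 32, among them those without parental replicate 1, 2 or 3 (0.0513 to 0.0526). With the mitochondrial share as a covariate its log2 fold change was 0.23 (adjusted p = 0.844), and with shScramble alone as control it was 0.94 (adjusted p = 0.217). Uba7, Rtp4 and Lgals3bp were each lost without shLuciferase replicate 3 or shScramble replicate 2 or 3 (0.0505 to 0.0709). Counts of called members ran from 0, without shHIRA II replicate 1 or 4, to 8 without shHIRA I replicate 3. Melanoblast markers were at their lowest in these same libraries, 661 to 1065 TPM in sum, and their part in the result was not tested.

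Several members lay within the control range in all 4 shHIRA II libraries. Ddx58 was at 48.8, 69.6, 97.3 and 84.98 TPM (log2 -0.03 ± 0.32 SE, adjusted p = 0.955), Rsad2 at 43.6, 91.4, 122 and 103 (log2 -0.17 ± 0.53 SE, adjusted p = 0.832) and Ifit1 at 34.2, 72.2, 64.5 and 50.4 (log2 -0.04 ± 0.55 SE, adjusted p = 0.967). Isg15 stood at 138, 354, 268 and 234 TPM, above most control libraries, without passing (log2 1.30 ± 0.59 SE, adjusted p = 0.101). Ifit3 stood at 26.7, 69.7, 80.1 and 50.5 TPM, toward the lower end of the controls, with 26.7 below all of them (log2 -1.32 ± 0.57 SE, adjusted p = 0.0841). Cmpk2 stood at 7.20, 21.6, 29.9 and 14.8 TPM, where the lowest control library had 18.2 (log2 -1.06 ± 0.40 SE, adjusted p = 0.0503). Across the 32 alternatives Cmpk2 was called lower in 14, Parp14 in 7, Samd9l in 4, Ifit3 in 2 and Ifit2 in 1. Isg15 was called higher in 2. Against parental cells, 37 of 43 members were higher and 0 lower (14.4% of all genes higher, 14.9% lower), with a median log2 fold change of 1.85. In 36 members all shHIRA II libraries lay above all parental ones and in 1 below (22.5% and 11.8% of all genes). Isg15 was higher by log2 5.10 ± 0.86 SE, adjusted p = 0.00029, Mx2 by log2 4.49 ± 0.64 SE, adjusted p = 6.66e-05 and Bst2 by log2 1.75 ± 0.61 SE, adjusted p = 0.037.

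**Figure D4:**
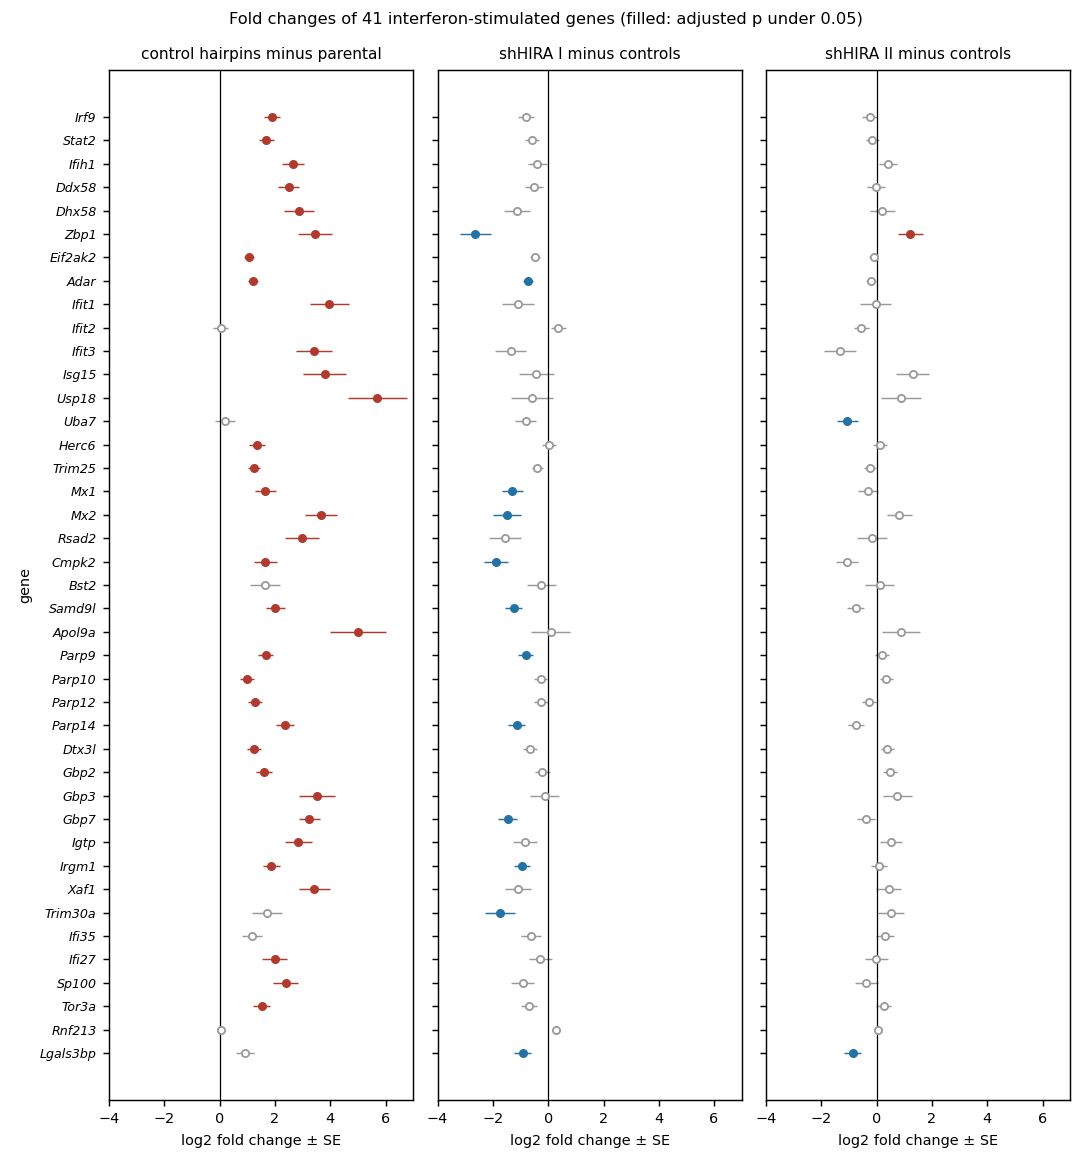
Log2 fold changes with standard errors for 41 genes in 3 comparisons: controls against parental cells, shHIRA I against controls and shHIRA II against controls. Irf7 and Gbp6 were not tested and Rtp4 and Ifi44 had parental levels at or near 0; filled points passed an adjusted p of 0.05. The transduction values lie to the right of 0, those of shHIRA I mostly to its left, and those of shHIRA II on both sides.

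The difference between the hairpins directed at Hira was tested itself. In shHIRA II against shHIRA I, 10 members were higher and 1 lower, with a median log2 fold change of 0.79 (-0.05 over all genes); 8.64% of all genes were called higher and 12.4% lower (21.1% in all). In 6 members every shHIRA II library lay above every shHIRA I library and in 0 below (7.75% and 8.00% of all genes). Zbp1 differed the most, with shHIRA II at 7.27, 8.32, 6.87 and 8.96 TPM and shHIRA I at 0.703, 0.296, 0.788 and 0.341 (log2 3.85 ± 0.62 SE, adjusted p = 0.000368). Mx2 was at 31.4, 57.3, 107 and 116 TPM in shHIRA II and 14.7, 6.55, 29.3 and 6.60 in shHIRA I, without overlap (log2 2.31 ± 0.57 SE, adjusted p = 0.00768). Trim30a was at 1.20, 1.62, 4.01 and 4.34 TPM in shHIRA II and 0.678, 0.626, 0.66 and 0.307 in shHIRA I, also without overlap (log2 2.24 ± 0.60 SE, adjusted p = 0.0115). Xaf1, Igtp, Gbp7, Dtx3l, Irgm1, Parp9 and Tor3a were higher by 1.53, 1.38, 1.07, 1.05, 1.04, 1.00 and 0.94 on the log2 scale (adjusted p between 0.012 and 0.0489).

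Ifit2 was the member called lower in shHIRA II than in shHIRA I, at 19.8, 16.3, 24.5 and 20.1 against 28.7, 68.6, 12.9 and 52.3 TPM (log2 -0.93 ± 0.31 SE, adjusted p = 0.0421). Its shHIRA I values ran opposite to those of Ifit1 and Isg15, with replicate 3 the lowest of the 4. Neither hairpin group differed from the controls by the test in Ifit2 (adjusted p = 0.359 and 0.133). Ifit3 did not pass the test between the hairpin groups (log2 0.04 ± 0.62 SE, adjusted p = 0.971).

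Of the 11 calls, those of Zbp1 and Trim30a were kept in all 30 alternatives. Dtx3l and Mx2 lost theirs only when the fit was limited to the groups compared. Ifit2, Irgm1, Parp9, Gbp7, Igtp, Tor3a and Xaf1 each lost theirs without shHIRA I replicate 2 or 4 or without shHIRA II replicate 3 or 4 (adjusted p 0.0517 to 0.199). Gbp7, Igtp, Tor3a, Xaf1 and Ifit2 were also lost in some of the analyses that left out 1 parental or control library (0.0503 to 0.0579), and Gbp7 without shHIRA I replicate 3 (0.0613). The same omission left 28 members higher and 2 lower, where the calls over all genes rose from 2855 to 4388, and moved the log2 fold changes of Mx2 to 3.17 (adjusted p = 0.000484), Xaf1 to 2.46 (adjusted p = 0.00105) and Igtp to 2.09 (adjusted p = 0.00195).

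A list of 45 further genes of the interferon pathway was read beside the members, and 34 of them were tested. Their values are those of the reported fit over all 20 libraries, and the alternative analyses were not read for them. None of 9 interferon genes could be tested: their estimated counts never passed 3.98 in any library and 145 of 180 values were 0. No receptor chain, adaptor, other interferon regulatory factor or inhibitor on the list was called in control hairpin cells against parental cells.

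With shHIRA I, 3 of the 34 pathway genes were higher and 3 lower than controls, beside 10.8% and 8.85% of all genes. Samhd1, which depletes nucleotides and so limits reverse transcription, was at 35.7 ± 9.66 TPM (SD, n = 4) against 14.6 ± 1.87 in shLuciferase and 15.7 ± 4.28 in shScramble (log2 1.12 ± 0.15 SE, adjusted p = 5.09e-05). Socs3, an inhibitor of cytokine receptor kinases, rose by 0.86 (adjusted p = 0.00358), and the phosphatase Ptpn6 by 0.55 (adjusted p = 0.0312). Il10rb, a receptor chain, Mavs, the adaptor below Ifih1 and Ddx58, and Pias1 fell by 0.62, 0.41 and 0.47 on the log2 scale (adjusted p = 0.0377, 0.00856 and 0.0297).

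In the libraries labelled shHIRA II, 4 of the 34 pathway genes were higher and 11 lower than controls, beside 15.8% and 16.7% of all genes. Samhd1 reached 55.7 ± 4.90 TPM (SD, n = 4; log2 1.81 ± 0.15 SE, adjusted p = 6.51e-07) and Myd88, the adaptor of most Toll-like receptors, 37.3 ± 3.06 against 18.7 ± 0.974 in shLuciferase and 20.1 ± 1.54 in shScramble (log2 0.86 ± 0.13 SE, adjusted p = 8.64e-05). Irf8 and Traf3 also rose, by 2.38 and 1.12 (adjusted p = 0.00035 and 0.000463). The kinase Ikbke, which acts below Mavs, stood at 5.44 ± 1.95 TPM against 16.1 ± 4.63 and 14.7 ± 2.51 in the controls (log2 -1.57 ± 0.25 SE, adjusted p = 0.000133). Of the 6 receptor chains, 4 fell: Il10rb by 1.26, Ifnlr1 by 0.89, Ifnar1 by 0.75 and Ifngr2 by 0.58 on the log2 scale (adjusted p between 0.000217 and 0.00736). Tlr3, Jak2, Pias1, Ticam1 and Mavs were lower as well, by 0.5 to 1.63. Tyk2 was called lower too, but its estimated counts lay between 0 and 116 within the control groups and at or near 0 in every shHIRA II library, so no fold is given.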

How the data were processed

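Poly(A) RNA-seq of 20 melb-a libraries was analysed from 2 deposited gene tables. The authors deposited estimated counts per gene, which are not whole numbers, and TPM values (levels per transcript length, scaled per library). Their tools were bcl2fastq, kallisto and edgeR on genome build mm10, per the submitters' processing notes. The annotation, strand setting and versions are not given in the sources used here. Counts equalled TPM times 1 length per gene, up to 1 factor per library (9790 genes). Columns were assigned by name; control columns that name no hairpin went to parental cells and shHIRA columns lacking a numeral to shHIRA I, the only groups left for them.

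Estimated counts were rounded, scaled by TMM and tested in edgeR 4.0.16 (R 4.3.3) by the quasi-likelihood F test, with a group-means model over all 20 libraries, genes of 10 or more counts in at least 4 libraries, and Benjamini-Hochberg adjustment over 13542 genes; an adjusted p under 0.05 was a call. The 7 comparisons, the alternatives (leaving out each library, DESeq2 1.42.0, limma 3.58.1 on log2(TPM + 1) and log2(TPM + 0.1), other filters and scalings, single controls, a replicate block, a mitochondrial covariate) and the members, lists and rules were chosen with earlier results of these data known. Members with full values were the 10 of smallest adjusted p in the transduction, shHIRA I and shHIRA II comparisons and the 5 of highest mean TPM; Usp18, Rsad2, Ddx58, Xaf1 and others were added after their values were seen. Of simulated 2-fold changes in shHIRA I against controls, 56% were recovered, and of 4-fold changes 77% (13542 genes). The changed genes were drawn from all genes tested, with noise independent between genes. These shares therefore do not give the recovery for the members, whose levels varied together by library. One gene of the pathway list is not reported here. Leaving a library out leaves that group with 3. Positions are from GENCODE M21 (GRCm38) and promoters from RefSeq.

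With 4 libraries a group and totals of 14.95 M to 20.7 M counts (M, 1e6), small changes are missed, and counting intervals and floors cover counting error only.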

Additional observations from a re-analysis of the deposited data

Results flagged for a closer look

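In 4 cases, 1 of the 4 libraries of a group held a value far from the rest on the log2(TPM + 1) scale, with a gap to its neighbour above Dixon's 95% critical value for the share of the range. Chance alone flags about 1 group in 20, and 125 groups were examined. Ifih1 stood at 1.10 in parental replicate 2, above the other 3 parental libraries. Mx2 stood at 3.38 in shLuciferase replicate 2, below the others. Trim30a stood at 0.39 in shHIRA I replicate 4, below the others. Bst2 stood at 10.46 in shHIRA I replicate 3, above the others, in the library with the mitochondrial share of 1.23%.

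Members whose shHIRA II and shHIRA I levels differed by the test of the difference itself (edgeR, log2 fold change of shHIRA II over shHIRA I) were Zbp1 at 3.85, Mx2 at 2.31, Trim30a at 2.24, Xaf1 at 1.53, Igtp at 1.38, Gbp7 at 1.07, Dtx3l at 1.05, Irgm1 at 1.04, Parp9 at 1.00, Tor3a at 0.94 and Ifit2 at -0.93. Hira was higher in the libraries labelled shHIRA II than in shHIRA I by 0.86 ± 0.16 SE (adjusted p = 0.00096).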

How the results depend on the processing

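The transduction result kept its direction and size: 31 to 39 members were higher under every alternative run, 31 to 38 of them when 1 library was left out. The members lower in shHIRA I, 12 as reported, numbered 31 with the mitochondrial share as a covariate, 31 without the 2 libraries of lowest mitochondrial share, 7 with shLuciferase alone as control, 7 with shScramble alone, and 6 to 32 when 1 library was left out. Members higher in shHIRA I than in parental cells, 24 as reported, numbered 14 in a fit of only the groups compared and 15 to 28 when 1 library was left out. Members called in shHIRA II against controls, 4 as reported, numbered 7 in a fit of only those groups, 0 with shLuciferase alone as control and 0 to 8 when 1 library was left out. Members higher in shHIRA II than in shHIRA I, 10 as reported, numbered 6 with no filter on low counts, 2 in a fit of only those groups, 26 without the 2 libraries of lowest mitochondrial share and 4 to 28 when 1 library was left out. With the mitochondrial share as a covariate, Hira in shHIRA II stood at -0.46 on the log2 scale (adjusted p = 0.0398), and the shHIRA II fold changes of Ifit2 and Isg15 turned to 0.25 (adjusted p = 0.522) and -0.54 (adjusted p = 0.533). The mitochondrial shares of shHIRA II and the control hairpins did not overlap, so covariate and group are confounded in these values. The cause of these shifts was not tested. A scaling on TPM with limma moved the median of all genes by 0.127 to 0.154 in shHIRA I and shHIRA II against parental cells. In the transduction comparison it moved that median by 0.0712 to 0.0748. Replicate numbers were not taken to pair the samples, since the labels name no shared origin and 21 of 40 same-numbered pairs correlated above 0.1 (-0.376 to 0.591); 11 of 20 libraries correlated best with their own number, a hint from the data and not the design. With the replicate block, 19 members were lower in shHIRA I and 7 were called in shHIRA II.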
